A study of Mus musculus with 2 samples.

Results

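The transcription factor genes described here mark where neurons of the midbrain and hindbrain come from, and were followed across single nuclei of the adult mouse brainstem. They were chosen by name, 10 of the 25556 genes in the count table: *En1*, *En2*, *Otx2*, *Pax2*, *Pax5*, *Gata2*, *Gata3*, *Tal1*, *Sox14* and *Lmx1b*. Each had at least 117 UMIs in all, and all 10 passed the minimum of 50 UMIs used for comparisons.

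These genes encode proteins that divide the embryonic neural tube and then fix the identity of the neurons born there. OTX2 marks the forebrain and midbrain side of the boundary between midbrain and hindbrain, and EN1, EN2, PAX2 and PAX5 act around that boundary. GATA2, GATA3 and TAL1 act together in selecting the inhibitory fate in the ventral brainstem and spinal cord, with SOX14 in related inhibitory lineages, while PAX2 also marks inhibitory neurons of dorsal origin. LMX1B is needed for serotonergic neurons and is found in dorsal excitatory neurons of the hindbrain. Many of these factors remain expressed in adult neurons, so that they still label lineages long after patterning has ended.

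Nuclei came from flash-frozen brainstem, in 1 WT library and 1 library of heterozygous (HET) Scn1aA1783V/WT mice, both female and at postnatal day 41 by the sample labels, which do not say whether animals were pooled. HET mice carry 1 missense allele of *Scn1a*, the sodium channel gene mutated in Dravet syndrome, made by crossing a male with a floxed stop allele to a *Sox2*-Cre female on a C57BL/6J background, so that the allele is carried throughout the body. WT mice were from the same crosses. Messenger RNA molecules were counted by unique molecular identifiers (UMIs) on the 10x Chromium 3′ platform. The WT library held 9259 nuclei and 70301390 UMIs, and the HET library 9022 nuclei and 66176778 UMIs. The median nucleus held 5456 UMIs in WT and 5646 in HET, and 23 cell barcodes occurred in both libraries. Neuronal clusters made up 66.1% of WT and 59.8% of HET nuclei. The nuclei had been divided into 16 clusters, 9 of them neuronal, and 34 finer subclusters. Clusters were read here by fixed marker genes. Of the defining markers, *Tph2* reached 1298 counts per 1000000 UMIs (CPM) in neuron.7, *Gabra6* 376 CPM in neuron.5, *Ttr* 16347 CPM in epend.2 and *Flt1* 2593 CPM in endo. Each genotype had 1 library, so the genotypes could not be tested against each other and the spread between animals is unknown. Intervals are 95% intervals that cover counting error only (exact Poisson for CPM, exact Clopper-Pearson for shares and ratios of counts), and differences are given as the log2 of HET CPM divided by WT CPM. UMIs were not scaled by gene length, so levels are compared between clusters and libraries and not between genes. In sums over nuclei, fewer cells of a type and less RNA per cell cannot be told apart.

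The inhibitory selectors *Gata2*, *Gata3* and *Tal1* shared nuclei, and the start regions of these genes are shown because GATA factors and TAL1 are known to bind motifs of the kinds marked in them. The sequences are 300-base RefSeq windows on GRCm38.p6, from 250 bases before to 50 bases after a transcription start, read 5′ to 3′ along the gene. Capitals mark GATAA on either strand (a GATA-type motif, TTATC on the other strand) and CANNTG (an E-box, the type of motif bound by TAL1 with its partners), and the motifs did not overlap in these windows.
*Gata2* (chr6:88198414-88198713, plus strand): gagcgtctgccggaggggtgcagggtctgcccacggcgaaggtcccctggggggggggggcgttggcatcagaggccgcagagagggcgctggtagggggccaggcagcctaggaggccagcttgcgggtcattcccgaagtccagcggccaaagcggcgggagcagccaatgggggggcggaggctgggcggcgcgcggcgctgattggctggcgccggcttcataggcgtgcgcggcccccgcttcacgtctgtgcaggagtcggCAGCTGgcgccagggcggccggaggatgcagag
*Gata3* (chr2:9878551-9878850, minus strand): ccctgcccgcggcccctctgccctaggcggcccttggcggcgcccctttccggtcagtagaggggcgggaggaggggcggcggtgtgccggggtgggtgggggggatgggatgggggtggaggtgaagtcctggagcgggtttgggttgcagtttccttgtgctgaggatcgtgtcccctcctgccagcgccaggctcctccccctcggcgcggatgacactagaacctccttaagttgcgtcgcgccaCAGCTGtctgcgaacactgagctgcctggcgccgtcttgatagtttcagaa
*Tal1* (chr4:115056176-115056475, plus strand): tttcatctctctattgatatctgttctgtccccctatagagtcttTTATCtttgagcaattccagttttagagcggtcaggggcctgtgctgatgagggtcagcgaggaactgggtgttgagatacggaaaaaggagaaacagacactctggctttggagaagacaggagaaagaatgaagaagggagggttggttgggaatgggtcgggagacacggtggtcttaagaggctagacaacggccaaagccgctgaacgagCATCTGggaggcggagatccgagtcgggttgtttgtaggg
*Tal1* had 1 GATAA match, at position 46 of the window, and each of the 3 windows had 1 CANNTG match, near the start of transcription. The E-box read CAGCTG in *Gata2* and *Gata3* and CATCTG in *Tal1*. A second *Gata2* window (chr6:88193641-88193940) and a second *Tal1* window (chr4:115057561-115057860) had neither motif. Among all 32851 windows of this length, 25.4% held GATAA and 72.3% held CANNTG, so that these matches are common and are given as a description.

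*Gata3* (chr2:9857078-9890034, minus strand, mm10) had 499 UMIs in WT and 357 in HET, or 7.10 CPM (6.49 to 7.75) and 5.39 CPM (4.85 to 5.98), a log2 ratio of −0.40 (−0.60 to −0.20). *Gata2* (chr6:88193891-88207032, plus strand) had 184 and 115 UMIs, or 2.62 and 1.74 CPM, a log2 ratio of −0.59 (−0.94 to −0.25). *Tal1* (chr4:115056426-115071755, plus strand) had 289 and 172 UMIs, or 4.11 and 2.60 CPM, a log2 ratio of −0.66 (−0.94 to −0.38). All 3 were lower in the HET library, and the WT and HET intervals did not overlap for any of them. Of all genes with at least 50 UMIs, 69.1% had a ratio interval without 0. With subclusters weighted equally in both libraries, the *Gata2* log2 ratio was −0.24 (−0.59 to 0.11).

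**Figure D1:**
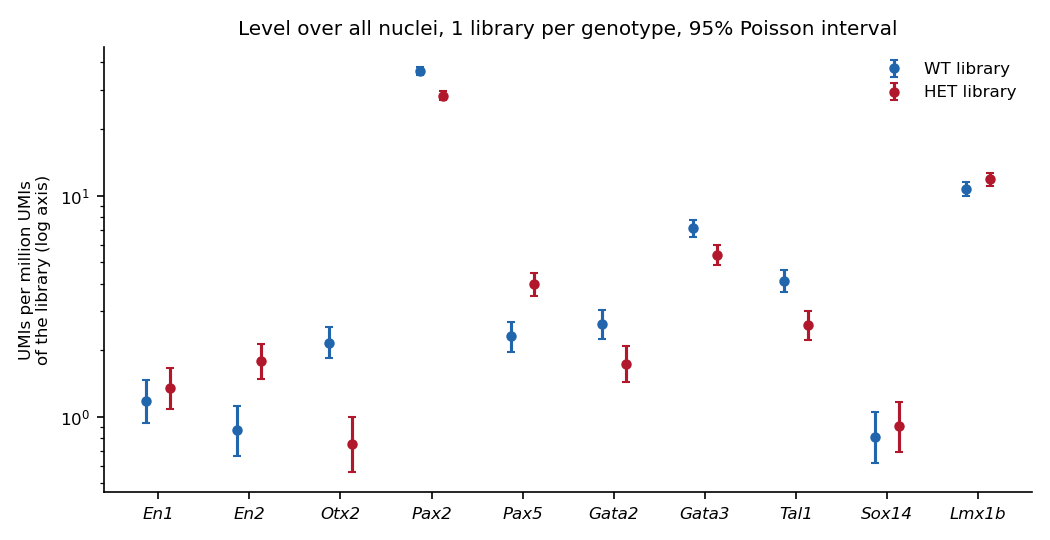
Level of the 10 genes over all nuclei, in CPM on a log axis, with 1 point per library and 95% Poisson intervals. *Gata2*, *Gata3*, *Tal1*, *Pax2* and *Otx2* sat lower in the HET library, *En2* and *Pax5* sat higher, and the intervals of *En1*, *Sox14* and *Lmx1b* overlapped.

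The 3 genes were found together in single nuclei. Of the 193 neuronal nuclei with a UMI of *Gata2*, 99 also had *Gata3*, which is 51.3% (44.0 to 58.5). Neuronal nuclei without *Gata2*, weighted to the same clusters and depth, had *Gata3* in 12.3%. Of the 316 neuronal nuclei with *Tal1*, 42.4% (36.9 to 48.1) had *Gata3*, against 5.56% of the weighted nuclei without *Tal1*. Of the 554 neuronal nuclei with *Gata3*, 24.2% (20.7 to 28.0) had *Tal1*, against 2.61%. *Gata2* nuclei held *Tal1* in 26.9%, against 3.05%. The overlap was present in each library, since *Gata3* was in 60.0% of *Gata2* nuclei of WT (50.0 to 69.4) and in 40.9% of HET (30.5 to 51.9), and in 45.3% and 38.1% of *Tal1* nuclei. Within neuron.1 alone, *Gata3* was in 54.1% of *Gata2* nuclei and in 45.0% of *Tal1* nuclei, against 5.48% and 4.71% of the weighted nuclei.

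Nuclei with these genes were mostly inhibitory by their transmitter genes. A UMI of *Slc32a1*, *Gad1*, *Gad2* or *Slc6a5*, the genes for loading or making GABA and for taking up glycine, was found in 93.4% of *Tal1* nuclei, 87.2% of *Gata3* nuclei and 82.9% of *Gata2* nuclei. The weighted nuclei without each gene reached 63.2%, 60.9% and 60.4%. A vesicular glutamate transporter UMI was in 23.7% of *Tal1* nuclei and 25.6% of *Gata3* nuclei, against 45.0% and 44.6%. A single UMI can come from free RNA, and in the oligodendrocyte cluster, at a median of 2807 UMIs per nucleus, 21.5% of nuclei had an inhibitory and 14.4% a glutamate transporter UMI. *Tal1*, *Gata2* and *Gata3* themselves were found in 0.169%, 0.145% and 0.289% of oligodendrocyte nuclei.

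**Figure D2:**
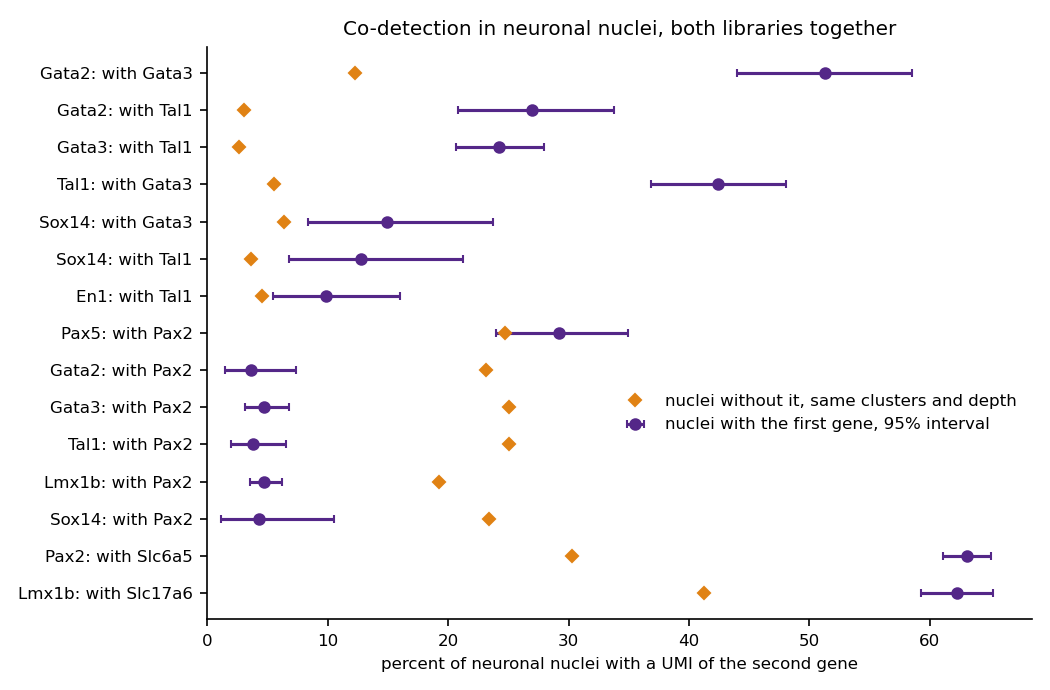
Percent of neuronal nuclei with a UMI of the second gene, among nuclei with the first gene (circles, 95% Clopper-Pearson interval) and among nuclei without it weighted to the same clusters and depth (diamonds), both libraries together. *Gata3* was in 51.3% of *Gata2* nuclei and *Pax2* in 4.69% of *Gata3* nuclei, on opposite sides of their diamonds.

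Across clusters the 3 genes were not distributed alike. *Gata3* was highest in neuron.7, the cluster that held 89.5% of the *Tph2* UMIs (*Tph2* makes serotonin), at 67.0 CPM (51.1 to 86.2) and with a UMI in 51.9% of its 79 nuclei. *Gata2* was there too, at 36.8 CPM (25.4 to 51.7) and in 34.2% of nuclei. *Tal1* had 0 UMIs in the 46 WT nuclei and 1 UMI in the 33 HET nuclei of neuron.7. The Poisson interval of the WT count of 0 reaches 7.27 CPM. Over both libraries *Tal1* in neuron.7 was 1.12 CPM (0.028 to 6.22), an interval that includes the 3.6 CPM of neuron.1, so that a difference between these clusters was not detectable at this depth. The interval lay below the 11.5 CPM of *Tal1* in neuron.3 (8.81 to 14.9).

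In neuron.3, 68.0% of nuclei had an inhibitory UMI and 40.3% a vesicular glutamate transporter UMI, close to neuron.1 at 63.1% and 40.3%. Its nuclei came from subcluster 13, with an inhibitory UMI in 85.2%, and subcluster 27, with 18.4%. *Tal1* stood at 11.5 CPM (8.81 to 14.9) in neuron.3 and *Gata3* at 12.3 CPM (9.49 to 15.7). Subcluster 13, which lies 89.3% within neuron.3, was the highest neuronal subcluster for *Tal1* at 17.3 CPM and the second highest for *Gata3* at 18.7 CPM. *Tal1* in this subcluster had 50 UMIs in WT and 26 in HET, or 28.0 and 9.97 CPM, a log2 ratio of −1.49 (−2.23 to −0.78). A *Tal1* UMI was in 24.3% of its WT and 9.88% of its HET nuclei. *Gata3* had 40 and 42 UMIs there, with a log2 ratio of −0.48 (−1.14 to 0.18), so that its interval included 0.

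*Gata2* and *Tal1* were also present outside neurons, where GATA2 and TAL1 are known factors of blood vessel and blood cell lineages. In the vascular cluster endo, *Gata2* reached 49.8 CPM (37.0 to 65.7) and *Tal1* 38.9 CPM (27.6 to 53.1), while *Gata3* had 1 UMI. The nuclei of endo that also carried the endothelial reference label held 41 of its 50 *Gata2* UMIs and 31 of its 39 *Tal1* UMIs. In the cluster micro, 12 of 24 *Tal1* UMIs lay in the 108 nuclei with the microglia label, at 53.3 CPM (27.5 to 93). Between genotypes, *Tal1* in endo was 38.5 CPM in WT and 39.7 CPM in HET, giving a log2 ratio of 0.05 (−1.04 to 1.06), and *Gata2* was 53.3 and 42.8 CPM, a log2 ratio of −0.32 (−1.32 to 0.61). Endo made up 2.40% of WT and 1.35% of HET nuclei.

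*Pax2* (chr19:44756045-44837871, plus strand) was found in more nuclei than any other member, with a UMI in 14.2% of WT and 11.4% of HET nuclei. It had 2573 UMIs in WT and 1873 in HET, or 36.6 CPM (35.2 to 38.0) and 28.3 CPM (27.0 to 29.6), a log2 ratio of −0.37 (−0.46 to −0.28). Neuron.1 held 94.8% of its UMIs. Among subclusters the level was 220 CPM (195 to 247) in subcluster 24, with a UMI in 84.9% of its 119 nuclei, and 112 CPM (104 to 121) in subcluster 9, with a UMI in 50.9%. Both differed from each other and from the next, subcluster 1 at 49.1 CPM, by more than their intervals, whereas subclusters 1, 3 and 10 at 49.1, 48.8 and 46.4 CPM did not. In the oligodendrocyte cluster *Pax2* stood at 7.14% of its neuronal level.

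*Pax2* nuclei were inhibitory and lay apart from the GATA nuclei. Of 2260 neuronal nuclei with *Pax2*, 63.1% (61.1 to 65.1) had *Slc6a5*, the glycine transporter of glycinergic neurons, against 30.3% of the weighted nuclei without *Pax2*. *Pax2* was in 4.69% of *Gata3* nuclei (3.09 to 6.80), 3.8% of *Tal1* nuclei (1.98 to 6.54) and 3.63% of *Gata2* nuclei (1.47 to 7.33), against 25.0%, 25.1% and 23.2% of the weighted nuclei without each gene. Thus the pair of inhibitory programs, *Pax2* on one side and *Gata2*, *Gata3* and *Tal1* on the other, were seen in largely separate nuclei of the same neuronal clusters. This held in each library, with *Pax2* in 5.26% of WT and 4.0% of HET *Gata3* nuclei. The weighting was by cluster and not by subcluster. *Gata3* was in 0.840% and 1.07% of nuclei of subclusters 24 and 9, where *Pax2* was highest. In subcluster 3 *Gata3* was in 7.74% and *Pax2* in 24.4% of nuclei. The part of the separation that lies between subclusters was not tested. Over 33 subclusters with at least 50 nuclei, the genes most like *Pax2* by Pearson's r of log2(CPM + 1) were *Slc6a5* (r = 0.89), *Gm20395* (r = 0.89) and *Gm13415* (r = 0.87). These points share the 2 libraries and differ in depth. *Gm20395* is annotated on the opposite strand within *Pax2*, as is *1700039E22Rik*, and they held 284 and 260 UMIs in WT and 381 and 367 in HET. They were thus higher in HET where *Pax2* was lower. The strand setting of the counting is not given in the sources used here.

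Within the 8 subclusters that could be compared, *Pax2* log2 ratios ranged from −0.37 to 0.55. In subcluster 9 it had 390 UMIs in WT and 319 in HET, or 111 and 114 CPM, a log2 ratio of 0.04 (−0.17 to 0.26). In subcluster 3 it had 370 and 374 UMIs, a log2 ratio of −0.02 (−0.23 to 0.19). In subcluster 1 it had 844 and 306 UMIs, or 51.1 and 44.3 CPM, a log2 ratio of −0.21 (−0.40 to −0.02), and in subcluster 24 it had 190 and 93 UMIs, a log2 ratio of −0.37 (−0.75 to −0.01). With subclusters given equal weights in both libraries the *Pax2* log2 ratio was −0.14 (−0.23 to −0.05), closer to the median of all genes at −0.09 than the −0.37 over all nuclei. Subcluster 1 made up 18.5% of WT and 5.66% of HET nuclei.

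**Figure D3:**
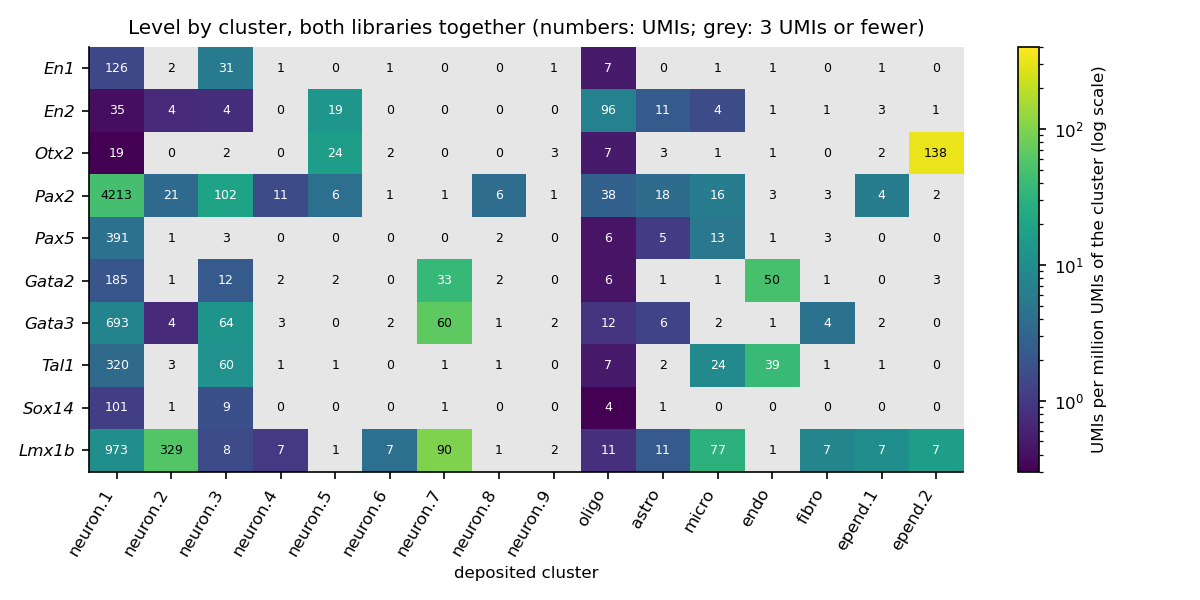
Level of each gene in the 16 deposited clusters, both libraries together, in CPM of the cluster (color, log scale), with the number of UMIs printed in each cell and cells of 3 UMIs or fewer in grey. *Otx2* was concentrated in epend.2. *En2* had most of its UMIs in oligo and its highest levels in neuron.5 and oligo, with intervals that overlapped. *Gata2* had its highest levels in endo and neuron.7 and most of its UMIs in neuron.1.

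*Pax5* (chr4:44524757-44710487, minus strand), a relative of *Pax2*, went the other way. It had 162 UMIs in WT and 263 in HET, or 2.30 CPM (1.96 to 2.69) and 3.97 CPM (3.51 to 4.48), a log2 ratio of 0.79 (0.50 to 1.08). Neuron.1 held 92.0% of its UMIs, and there it was 3.0 and 6.05 CPM, a log2 ratio of 1.01 (0.71 to 1.32). The difference was seen in subcluster 0, with 21 and 91 UMIs and a log2 ratio of 1.78 (1.09 to 2.54), in subcluster 10, with 11 and 50 UMIs and a log2 ratio of 2.09 (1.13 to 3.18), and in subcluster 3, with 33 and 59 UMIs and a log2 ratio of 0.80 (0.16 to 1.46). The 50 HET UMIs of subcluster 10 lay in 24 nuclei. There 3.69% of WT (1.86 to 6.51) and 7.67% of HET nuclei (4.97 to 11.2) held the gene, with intervals that overlapped. In subclusters 1 and 5 the log2 ratios were −0.10 (−1.03 to 0.76) and −0.29 (−1.18 to 0.59). More nuclei held the gene, 1.33% in WT and 1.91% in HET, and the nuclei that held it had 1.32 and 1.53 UMIs each. Of the 277 *Pax5* neuronal nuclei, 29.2% (24.0 to 35.0) also had *Pax2*, against 24.7% of the weighted nuclei, which lies within the interval. In micro, 13 *Pax5* UMIs lay in 4 nuclei, and no *Pax5* UMI was seen in neuron.5 or neuron.7.

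*Otx2* (chr14:48657677-48673819, minus strand) was the member with the largest difference over all nuclei, and its UMIs sat in few places. It had 152 UMIs in WT and 50 in HET, or 2.16 CPM (1.83 to 2.53) and 0.756 CPM (0.561 to 0.996), a log2 ratio of −1.52 (−2.01 to −1.05). Cluster epend.2 held 138 of its 202 UMIs at 328 CPM (276 to 388), with a UMI in 62.3% of nuclei. The 5 choroid plexus markers summed to 18085 CPM in this cluster. OTX2 is a known factor of the choroid plexus. Epend.2 had 108 nuclei in WT and 6 in HET, which held 130 and 8 *Otx2* UMIs. Within these nuclei the level was 328 CPM (274 to 389) in WT and 332 CPM (143 to 653) in HET, with intervals that overlapped. Of the choroid plexus markers, 4 of 5 were lower in HET by more than 1.5-fold over all nuclei, with *Ttr* lowest at a log2 ratio of −3.21 and *Kcnj13* highest at 0.60. Their summed level in neuron.1 was 262 CPM in WT and 70.9 CPM in HET. The part of free choroid plexus RNA in the *Otx2* difference was not tested.

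In neurons *Otx2* was sparse and did not follow that direction. Neuronal clusters held 17 *Otx2* UMIs in WT and 33 in HET, a log2 ratio of 1.11 (0.23 to 2.05). Of these, neuron.5 held 4 and 20. Neuron.5 counted 42 nuclei in WT and 332 in HET, and its *Otx2* level was 25.4 CPM (6.93 to 65.1) and 15.7 CPM (9.57 to 24.2), a log2 ratio of −0.70 (−2.28 to 1.31). The 7 cerebellar granule cell markers summed to 1380 CPM in WT and 1393 CPM in HET in this cluster, and 23.1 CPM over both libraries in neuron.1. With clusters or with subclusters weighted equally in both libraries, the *Otx2* log2 ratio was 0.0041 (−0.75 to 0.76) or −0.01 (−0.76 to 0.74). The opposite-strand gene *Otx2os1* had 1091 UMIs in WT and 511 in HET.

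*En1* and *En2*, a pair of related homeobox genes of the boundary region, had most of their UMIs in different clusters. Neuron.1 held 73.3% of the *En1* UMIs, and the oligodendrocyte cluster held 53.6% of the *En2* UMIs. *En1* (chr1:120602418-120607992, plus strand) had 83 UMIs in WT and 89 in HET, or 1.18 and 1.34 CPM, a log2 ratio of 0.19 (−0.26 to 0.64). Its level was highest in subcluster 13, at 7.06 CPM (4.80 to 10.0), ahead of subcluster 3 at 2.75 CPM (1.98 to 3.72) with intervals that did not overlap. Of 142 *En1* neuronal nuclei, 85.2% (78.3 to 90.6) had an inhibitory UMI, against 64.3% of the weighted nuclei, and 60.6% had *Slc6a5*, against 42.3%. *Tal1* was in 9.86% of *En1* nuclei (5.50 to 16), against 4.58%. By library it was 5.80% (1.60 to 14.2) against 7.08% in WT and 13.7% (6.77 to 23.8) against 3.02% in HET, and the intervals of the libraries overlapped. In neuron.3 *En1* had 17 UMIs in WT and 14 in HET, or 10.3 and 3.94 CPM, a log2 ratio of −1.39 (−2.52 to −0.28). The make-up of neuron.3 differed between libraries. Subcluster 27, which lies 99.1% within it, held 14 WT and 100 HET nuclei, and 85.1% of them had a glutamate transporter UMI. The part of this in the *En1* ratio was not tested. In subcluster 0 *En1* had 4 and 31 UMIs, a log2 ratio of 2.62 (1.12 to 4.58), opposite in sign to neuron.3. It passed the minimum for comparison in subcluster 0 through its HET UMIs alone. A minimum on summed UMIs lets in units that are high in only one library. These values therefore cannot show what the ratio over all nuclei was made of.

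*En2* (chr5:28165694-28172166, plus strand) had 61 UMIs in WT and 118 in HET, or 0.868 CPM (0.664 to 1.11) and 1.78 CPM (1.48 to 2.14), a log2 ratio of 1.04 (0.58 to 1.51). Only 34.6% of its UMIs were in neurons. The oligodendrocyte cluster held 96, at 6.99 CPM (5.66 to 8.54) and in 2.19% of nuclei (1.77 to 2.69), whereas 0.362% of the deeper neuron.1 nuclei had the gene. Neuron.5 held 19 *En2* UMIs at 13.2 CPM (7.98 to 20.7), an interval that overlapped that of oligo. In oligo the UMIs were 45 in WT and 51 in HET, or 7.70 and 6.47 CPM, a log2 ratio of −0.25 (−0.86 to 0.36), in 1767 and 2382 nuclei. In neuron.5 all 19 UMIs were from HET, at 14.9 CPM. The Poisson interval of the WT count of 0 reaches 23.5 CPM, so that a difference was not detectable at this depth. In neuron.1 *En2* had 7 UMIs in WT and 28 in HET, a log2 ratio of 2.25 (1.02 to 3.69). Granule cell markers in neuron.1 included *Gabra6*, with 17 UMIs in WT and 71 in HET, and *Cbln3*, with 16 and 62, while the 7 markers together, most of whose UMIs there came from *Zic1* and *Etv1*, summed to 22.5 and 23.7 CPM. The part of granule cell RNA in the *En2* difference was not tested. The genes most like *En2* over the 33 subclusters were *Cnp* (r = 0.84), *Mobp* (r = 0.83) and *Adamts4* (r = 0.82), of which *Cnp* and *Mobp* encode myelin proteins.

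*Lmx1b* (chr2:33560965-33640511, minus strand) was found in neurons with serotonergic and with glutamatergic genes. It had 756 UMIs in WT and 783 in HET, or 10.8 CPM (10.0 to 11.5) and 11.8 CPM (11.0 to 12.7), a log2 ratio of 0.14 (−0.01 to 0.28). Its level was 100 CPM (80.8 to 124) in neuron.7, in 58.2% of nuclei, and 59.0 CPM (52.8 to 65.7) in neuron.2, in 30.6% of nuclei. Both were above neuron.1 at 10.9 CPM (10.3 to 11.6). The 8 serotonergic genes summed to 3795 CPM in neuron.7 and 37.2 CPM in neuron.1. Of 1016 *Lmx1b* neuronal nuclei, 62.3% (59.2 to 65.3) had *Slc17a6*, the vesicular glutamate transporter of brainstem neurons, against 41.2% of the weighted nuclei, and 4.72% (3.50 to 6.22) had *Pax2*, against 19.3%. *Tal1* was in 0.492% of *Lmx1b* nuclei, against 2.43%. The genes most like *Lmx1b* over subclusters were *C130021I20Rik* (r = 0.85), *Gm13986* (r = 0.73) and *Efcab1* (r = 0.73).

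Within neuron.7 *Lmx1b* had 47 UMIs in WT and 43 in HET, or 92.6 and 111 CPM, a log2 ratio of 0.26 (−0.37 to 0.89). The GATA genes in the same nuclei were 78.8 CPM in WT and 51.5 CPM in HET for *Gata3*, giving a log2 ratio of −0.61 (−1.47 to 0.20), and 43.3 and 28.3 CPM for *Gata2*, a log2 ratio of −0.61 (−1.80 to 0.49). All 3 intervals included 0. In subcluster 5 *Lmx1b* had 26 UMIs in WT and 49 in HET, a log2 ratio of 0.99 (0.27 to 1.73), and in subcluster 3 it had 26 and 50 UMIs, a log2 ratio of 0.91 (0.19 to 1.65). In subcluster 0, which held the most of its UMIs of any subcluster (285 and 340), the log2 ratio was −0.08 (−0.31 to 0.15). The cluster named micro held 77 *Lmx1b* UMIs, of which 76 lay in nuclei that carried a neuron reference label.

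*Sox14* (chr9:99874106-99876170, minus strand) was the sparsest, with 57 UMIs in WT and 60 in HET, or 0.811 and 0.907 CPM, a log2 ratio of 0.16 (−0.39 to 0.71). Neuron.1 held 86.3% of its UMIs. Subclusters 13, 10, 1 and 3, at 2.51, 2.00, 1.49 and 1.44 CPM, did not differ by more than their intervals. Of 94 *Sox14* neuronal nuclei, 14.9% (8.39 to 23.7) had *Gata3* and 12.8% (6.77 to 21.2) had *Tal1*, against 6.36% and 3.66% of the weighted nuclei, and 4.26% (1.17 to 10.5) had *Pax2*, against 23.4%. An inhibitory UMI was in 70.2% (59.9 to 79.2), against 63.8%, which lies within the interval.

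Over all nuclei, 5 of the 10 genes differed by more than 1.5-fold, *En2* and *Pax5* higher and *Otx2*, *Gata2* and *Tal1* lower in HET. Of the 19834 genes with at least 50 UMIs, 23.3% did so, 8.95% higher and 14.4% lower, and of the 12297 genes with as many UMIs as the members, 25.5% did so. *Gata2*, at −0.59, stood just past the threshold of 0.58. Intervals without 0 were found for 7 members and for 69.1% of all genes. The median log2 ratio of the members was −0.12, against −0.10 over all genes, so that as a group they lay near the middle of the table. *Pax5* (0.74), *En2* (0.77) and *Tal1* (−0.58) kept values of this size when subclusters were weighted equally, although *Tal1* then fell just short of 1.5-fold, while *Gata2* moved to −0.24 (−0.59 to 0.11) and *Otx2* to about 0. With that weighting 2 of the 10 were past 1.5-fold, against 21.8% of all genes.

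**Figure D4:**
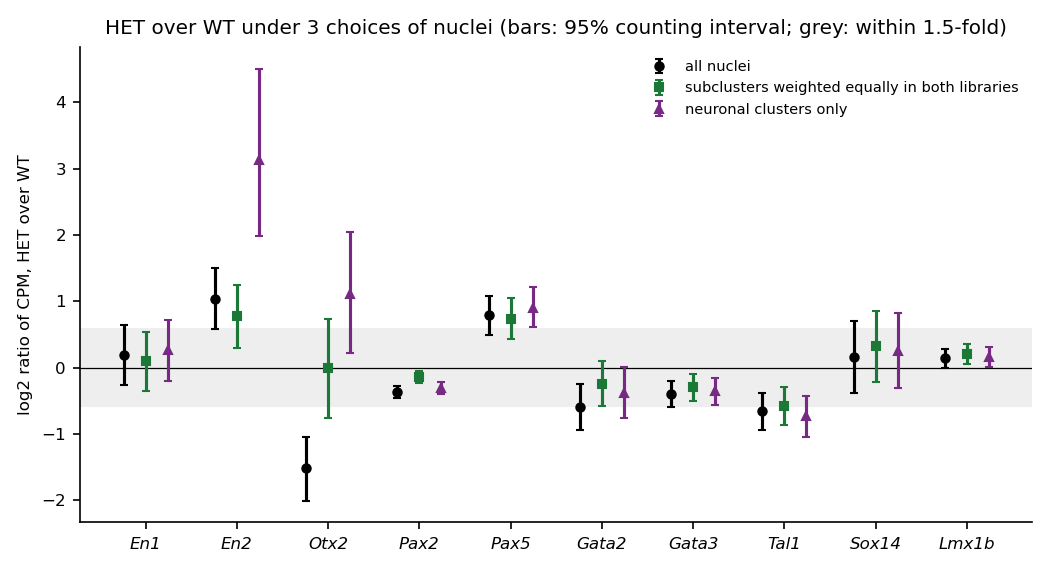
Log2 ratio of CPM, HET over WT, for the 10 genes over all nuclei (circles), with subclusters weighted equally in both libraries (squares) and in neuronal clusters only (triangles), with 95% counting intervals and the range within 1.5-fold in grey. *Otx2* moved from −1.52 to −0.01 and to 1.11, and *En2* from 1.04 to 0.77 and to 3.13, while *Pax5* and *Tal1* kept their direction.

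In the large cluster neuron.1 9 members passed a minimum of 20 UMIs, and their log2 ratios had a median of 0.39, against −0.09 for the 20477 genes that passed it. Of these 9, *En2* and *Pax5* were higher and *Tal1* lower by more than 1.5-fold, while 24.2% of all genes were past that fold, 10% higher and 14.2% lower. The median was the value of *Sox14*, with an interval of −0.20 to 0.99. *En2*, with 7 UMIs in WT and 28 in HET, passed the minimum through its HET UMIs alone. No conclusion is therefore drawn from the median. The *En2* value stands beside the higher *Gabra6* and *Cbln3* UMIs in HET nuclei of the same cluster, given above. *Tal1* had 212 UMIs in WT and 108 in HET there, or 4.39 and 2.66 CPM, a log2 ratio of −0.72 (−1.07 to −0.38). *Lmx1b* was higher by 0.44 (0.25 to 0.62) and *Gata3* stood at −0.28 (−0.50 to −0.06).

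The subclusters of neuron.1 differed in direction. In subcluster 0, which held 1288 WT and 1576 HET nuclei, the log2 ratios of the 7 members that passed the same minimum had a median of 0.98, against −0.08 for all genes. Of them 4 were higher and none lower by more than 1.5-fold, against 9.4% and 13.9% of all genes. These were *En1*, *Pax5*, *Gata2* and *Gata3*. *Gata3* had 33 UMIs in WT and 82 in HET, a log2 ratio of 0.98 (0.38 to 1.61), and was found in 1.86% and 4.0% of nuclei. *Gata2* had 10 and 25 UMIs, a log2 ratio of 0.99 (−0.12 to 2.21). In subcluster 1, which held 1714 WT and 511 HET nuclei, the 8 members that passed had a median of −0.50, against −0.14. Of them 4 were lower (*Gata2*, *Gata3*, *Tal1* and *Sox14*) and none higher by more than 1.5-fold, against 20.8% and 7.89% of all genes. *Gata3* had 173 and 42 UMIs there, a log2 ratio of −0.79 (−1.31 to −0.29), and *Tal1* 90 and 18 UMIs, a log2 ratio of −1.07 (−1.88 to −0.32). In subcluster 3 the median over 8 members was 0.01, against −0.07, and 3 were higher (*Pax5*, *Sox14* and *Lmx1b*) and none lower by more than 1.5-fold, against 8.62% and 12.3%. A gene could pass the minimum through the library in which it was high, as *En1* did in subcluster 0 and *Sox14* in subcluster 1. These medians and counts therefore describe only the members that passed, and no conclusion is drawn from them. The share of inhibitory nuclei also set these subclusters apart, at 41.7% in subcluster 0, 68.1% in subcluster 1 and 79.1% in subcluster 3.

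**Figure D5:**
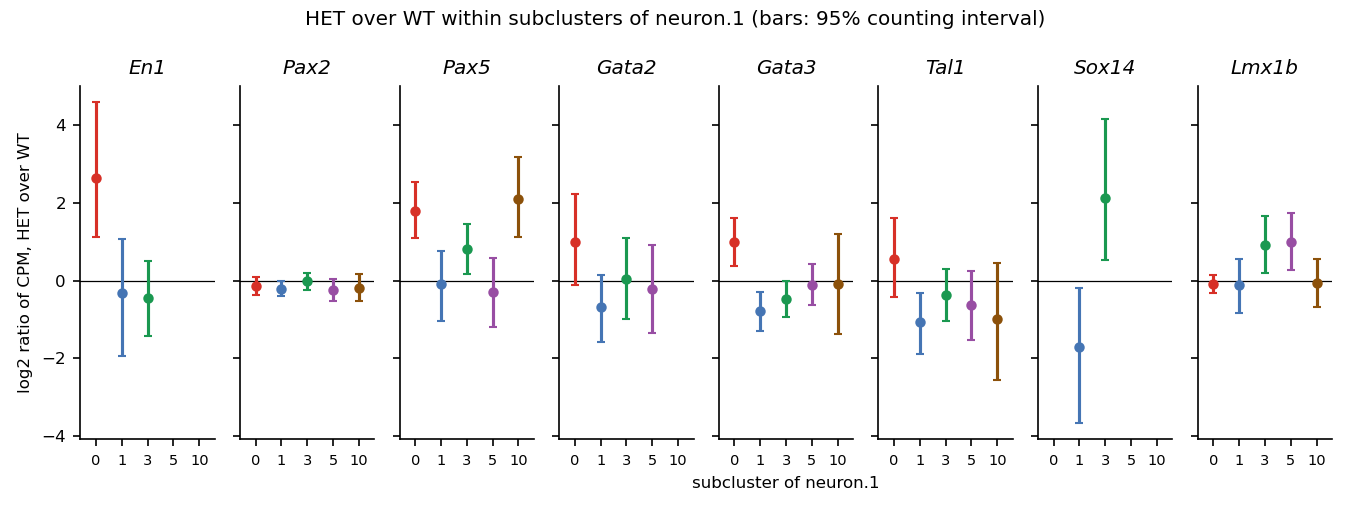
Log2 ratio of CPM, HET over WT, within 5 subclusters of neuron.1 for the 8 genes with at least 20 UMIs in 2 or more of them, with 95% counting intervals. *Gata3* lay above 0 in subcluster 0 and below 0 in subclusters 1 and 3, and its intervals in subclusters 5 and 10 included 0. *Pax5* lay above 0 in subclusters 0, 3 and 10, and its intervals in subclusters 1 and 5 included 0. *Pax2* lay between −0.25 and −0.02 in all 5.

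Other genes of the same pathways were read from fixed lists, to be set beside the 8.95% of all genes that were higher and the 14.4% that were lower by more than 1.5-fold. Of 14 genes for patterning of the midbrain and its boundary, 7 had at least 50 UMIs, and 3 were higher and none lower in HET by more than 1.5-fold. *Pax7*, which marks the dorsal midbrain, was the highest, with 7 UMIs in WT and 78 in HET and a log2 ratio of 3.57 (2.45 to 4.93), and 51.8% of those UMIs lay in subcluster 3. *Cnpy1*, a modulator of FGF signaling at the boundary, had 43 and 363 UMIs, of which 6 and 148 lay in neuron.5, the cluster of granule cell markers with 42 WT and 332 HET nuclei. *Pax3* had 268 and 390 UMIs, 78.9% of them in the astrocyte cluster. *Cnpy1* and *Pax3* were named after their values were seen. *Pax7* and *Cnpy1* had fewer than 50 UMIs in WT and passed the minimum through their HET UMIs alone. The counts of these lists therefore describe only the genes that passed. *Pax8*, a relative of *Pax2* and *Pax5*, was the lowest at −0.27, with 1093 and 855 UMIs. Of 25 partners of GATA and TAL1 factors and genes of ventral inhibitory lineages, 22 passed, of which none was higher and 6 were lower, with *Zfpm2*, a GATA cofactor, at 0.50 and *Lhx4* at −0.91 as the extremes. Of 11 genes of the dorsal inhibitory lineage 8 passed, none higher and 3 lower, from *Prdm8* at 0.50 to *Foxd3* at −1.48. Of 17 genes of excitatory lineages 14 passed, 2 higher and 8 lower, from *Barhl1* at 1.77 to *Pou4f1* at −1.82.

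The serotonergic list had 7 of 8 genes past the minimum, with 1 higher (*Tph2*, 0.82) and 1 lower (*Gch1*, −0.71). *Tph2* had 430 UMIs in WT and 733 in HET in neuron.7, the cluster of *Lmx1b*, *Gata2* and *Gata3*. Of the 6 dopaminergic genes 5 passed, with 2 higher and none lower, from *Th* at 0.63 to *Nr4a2* at −0.34. Cell type markers differed beside these genes. All 4 inhibitory transmitter genes had log2 ratios below 0, from *Gad2* at −0.05 to *Slc32a1* at −0.76, 2 of them past 1.5-fold, and the 7 granule cell markers had a median of 0.76, from *Gabra6* at 2.96 to *Zic2* at −0.04. The part of tissue composition in the differences of the 10 genes was not tested beyond the equal weights given above.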

How the data were processed

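The authors made the deposited counts, UMIs per gene and nucleus without normalization, with Cell Ranger (version not given in the sources used here) on its mm10 reference. They filtered nuclei and genes in Seurat 4.1. The percent values deposited by the authors give mitochondrial and ribosomal UMIs per nucleus, and the doublet score deposited by the authors comes from a caller not named in the sources used here, which had removed doublets before deposit. Clusters, subclusters (resolution 0.8) and reference labels were used as deposited.

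UMIs were summed per library, cluster and subcluster. A cluster entered the genotype comparison where both libraries had 30 or more nuclei and the gene 20 or more UMIs. Equal weights used the mean of the 2 libraries' UMI shares, with intervals from Poisson standard errors. Co-detection took 1 UMI as positive and weighted the other neuronal nuclei by cluster and 5 depth bins. Positions are from GENCODE vM21 and promoters from RefSeq (9 of 10 genes matched). The named genes were all members, the highest and lowest gene of each list, and the 3 genes most like each member, of which a selection is printed. The list of forebrain factors is not reported here. Members and lists were chosen with earlier results of these data known. The counting intervals were tested only on simulated independent Poisson counts, which hold neither clumping of UMIs within nuclei nor the spread between animals. Sums and intervals were computed with scipy 1.17.1, pandas 2.3.3 and numpy 2.4.6 under Python 3.11.15, and plots with matplotlib 3.10.9. Median ribosomal shares were 0.696% in WT and 0.407% in HET, and mitochondrial shares 0.343% and 0.458%.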

Additional observations from a re-analysis of the deposited data

Results flagged for a closer look

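*Gata3* differed in direction between subclusters of neuron.1. Its log2 ratio, HET over WT, was 0.98 in subcluster 0, −0.79 in subcluster 1 and −0.47 in subcluster 3, with counting intervals without 0 in each. In subclusters 5 and 10 it was −0.11 and −0.10, with intervals that included 0. *Sox14* had a log2 ratio of 2.13 in subcluster 3, from 4 UMIs in WT and 18 in HET, and −1.70 in subcluster 1, from 31 and 4 UMIs. These opposite directions rest on 1 library per genotype, and the difference between the subclusters was not tested. *Sox14* passed the minimum for comparison in subcluster 1 through its WT UMIs alone. In subcluster 3 it passed mostly through its HET UMIs. A minimum on summed UMIs lets in such one-sided counts, so no conclusion is drawn from the opposite directions of *Sox14*.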

How the results depend on the processing

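The count of 5 genes past 1.5-fold was 3 with equal weights of clusters, 2 with equal weights of subclusters, 3 with the median log2 ratio set to 0, 2 with the mean over nuclei of CPM, and 2 at a threshold of 2-fold. The median log2 ratio of −0.12 was 0.21 in neuronal clusters only. The *Otx2* log2 ratio was near 0 with equal weights of clusters (0.0041), and it changed direction in neuronal clusters only (1.11) and without the 5 clusters drawn mostly from 1 library (0.81). Requiring 2 UMIs lowered the share of *Gata3* nuclei with *Tal1* from 24.2% to 10.2%, of *Gata2* nuclei with *Gata3* from 51.3% to 36.7%, and of *Tal1* nuclei with *Gata3* from 42.4% to 29.0%. Thinned to 1000 UMIs per nucleus, 3 genes in place of 5 had the larger share of nuclei in HET. Over the alternatives, log2 ratios ranged from 0.56 to 3.13 for *En2*, 0.58 to 0.91 for *Pax5*, −0.75 to −0.46 for *Tal1*, −0.72 to −0.24 for *Gata2* and −0.09 to 0.41 for *Lmx1b*. No paired analysis was possible because each genotype had 1 library. Counting error alone limits most single cluster values, and the spread between animals is unknown.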

Other observations

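Marker lists of other cells gave these values over all nuclei, counted at 1.5-fold with at least 50 UMIs, HET over WT. Of 6 cerebellar inhibitory markers 2 were higher and 1 lower, from *Pcp2* at a log2 ratio of 1.02 to *Aldh1a3* at −1.66. Of 3 glutamate transporter genes 1 was higher, *Slc17a7* at 1.47. Of 4 ependymal markers 2 were lower, with *Ccdc153* lowest at −1.86, and of 4 vascular markers 2 were lower, with *Cldn5* lowest at −1.67. Of 4 oligodendrocyte markers 1 was higher, *Mobp* at 1.18, and of 4 astrocyte markers 1, *Slc1a3* at 0.59. None of the 3 oligodendrocyte precursor, 4 microglia and 4 neuron markers was past 1.5-fold. The oligodendrocyte cluster, which held most *En2* UMIs, made up 19.1% of WT and 26.4% of HET nuclei.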
